A study of Caenorhabditis elegans with 3 samples.

Results

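Long non-coding RNA genes of Caenorhabditis elegans embryos were followed across a mutant of the dosage compensation complex, a deletion of binding sites of that complex, and wild type. The set holds the rows of the deposited RNA-seq table whose gene identifier maps to a symbol that starts with linc- or anr-, or to tts-1 or tts-2. These were 224 rows of 40669 in all. They cover 168 of 170 annotated linc genes, 54 of 57 anr genes and both tts genes, and the other 5 genes were not analysed here. The rule itself reads names only. The set as a whole was, however, selected on earlier results of these data, the FPKM of tts-1 in the 8rex deletion and wild type among them, so its values are given as a description. Of the 224 rows, 191 hold a single gene, 20 are shared with other non-coding genes and 13 are shared with a coding gene. The last 13 are reported apart. After a minimum of 1 FPKM (sequenced fragments divided by transcript length in kilobases and by library size) for the mean of the 3 genotypes, 108 of the 211 rows without a coding gene remained.

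The linc genes (long intervening non-coding RNAs) are named for lying between coding genes. The anr genes (antisense RNAs) are named for transcription from the strand opposite a coding gene. The names tts-1 and tts-2 stand for transcribed telomere-like sequence. In worms with reduced insulin-like signalling or a slowed mitochondrial respiratory chain, tts-1 RNA is known to be abundant, to associate with ribosomes and to be needed for the full extension of lifespan. For most linc and anr genes no function is established.

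Poly(A) RNA came from embryos of 3 genotypes. The DCC mutant (strain TY0810) carries the y93 mutation of sdc-2 and was fed HT115 bacteria expressing sdc-2 RNAi, with 3 replicates in the labels. In hermaphrodites the dosage compensation complex (DCC) is targeted to both X chromosomes by SDC-2, and there it lowers transcription. The 8rex deletion (strain TY5827, 5 replicates) lacks 8 sites on X at which that complex is recruited. Its alleles are y572 of rex-32, y743 of rex-33, y738 of rex-14, y671 of rex-47, y737 of rex-8, y741 of rex-43, y742 of rex-48 and y740 of rex-35. Wild type was strain N2 (5 replicates). Both the 8rex deletion and wild type received those bacteria with the empty vector pL4440. Each mutant was compared with wild type. The sdc-2 row stood at 10.98 FPKM (DCC mutant), 16.01 FPKM (8rex deletion) and 18.04 FPKM (wild type), with p = 0.505 in the authors' deposited table for the DCC mutant, so no drop of its RNA was detectable, and a level of RNA says nothing of the y93 mutation.

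The table holds 1 FPKM value per genotype, in which the authors had already combined the replicates. No value below therefore has a standard deviation, and the authors' p and q are the only values that saw replicates. Depth per library is unknown. For every genotype the labels give 68 to 70 hours after plating and 7 to 8 hours of development at 20 °C. Each genotype had 2 mixed-stage replicates, and the others were older. The DCC mutant had 1 older replicate of 3, in which most embryos had reached the 3-fold stage. The 8rex deletion had 3 older replicates of 5, as did wild type. This stage mix cannot be told apart from the DCC mutant genotype. The rows of 10 early-embryo genes summed to 1227 FPKM (DCC mutant), 639 FPKM (8rex deletion) and 619 FPKM (wild type). Of these rows, those of oma-1, oma-2 and nos-2 also hold other genes. In the DCC mutant 9 of the 10 stood above wild type, and skn-1 did not. The part of stage mix and early-embryo RNA in the differences of the DCC mutant below was not tested. Markers of muscle, pharynx, gut, epidermis and neurons were all above 0 in wild type, while adult yolk genes summed to 1.2 FPKM there. An exact 0 can be a failed estimate in this table, so such a row is described only as listed at 0. In bulk samples a lower value from fewer expressing cells and from less RNA per cell cannot be told apart.

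The tts-1 RNA was higher in the 8rex deletion than in wild type. Its row also holds F09E10.14, a short non-coding gene next to it on the same strand, so the value covers both genes. The tts-1 gene (WBGene00006650, non-coding, 1 exon of 711 bases) lies on X from 1504131 to 1504841, minus strand, in ce11. The row stood at 29.3 FPKM (DCC mutant), 220 FPKM (8rex deletion) and 44.2 FPKM (wild type). The 8rex deletion was thus the high sample, 4.97-fold over wild type and 7.49-fold over the DCC mutant. On the log2(FPKM + 1) scale, which understates changes of low genes and is used for all log2 differences below, the 8rex deletion stood 2.29 above wild type and the DCC mutant stood at -0.58 from it. The authors' deposited table gave tts-1 a p of 5e-05 and a q of 0.0632 in the 8rex deletion. That p is the smallest in their table, held by 6 rows of the 9378 tested, tts-1 included, and no row of either comparison had a q under 0.05. For the DCC mutant the p of tts-1 in the authors' deposited table was 0.399. Among the 108 long non-coding rows, tts-1 ranked 13 by level in the DCC mutant, 3 in the 8rex deletion and 7 in wild type.

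The tts-2 gene (WBGene00006651, 2 exons, 882 bases) lies on chromosome II from 10201125 to 10202230, minus strand. It stood at 1330 FPKM (DCC mutant), 1300.1 FPKM (8rex deletion) and 1368 FPKM (wild type). The 3 levels were close together, with log2 differences from wild type of -0.04 in the DCC mutant and -0.07 in the 8rex deletion. The authors' deposited table gave tts-2 p = 0.961 for the DCC mutant and p = 0.915 for the 8rex deletion. It was the most abundant of the 108 rows in each genotype and held 48.6% of their summed FPKM. Among all 15628 rows above the minimum it ranked 90 in the DCC mutant, 92 in the 8rex deletion and 87 in wild type. The tts-1 row reached 2.21% of the tts-2 level in the DCC mutant, 16.9% in the 8rex deletion and 3.23% in wild type. The tts-2 row is deposited with a locus start of 10171254, which it shares with a row that holds a coding gene. Such a shared start was found at 48 of the 108 rows. Among them were anr-1, anr-2, anr-19, anr-21, anr-23, anr-29, anr-36 and the anr-28 and anr-26 row. The linc-11, linc-14, linc-78, linc-80 and linc-141 rows were also among them. The bearing of a shared start on these levels was not tested.

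**Figure D1:**
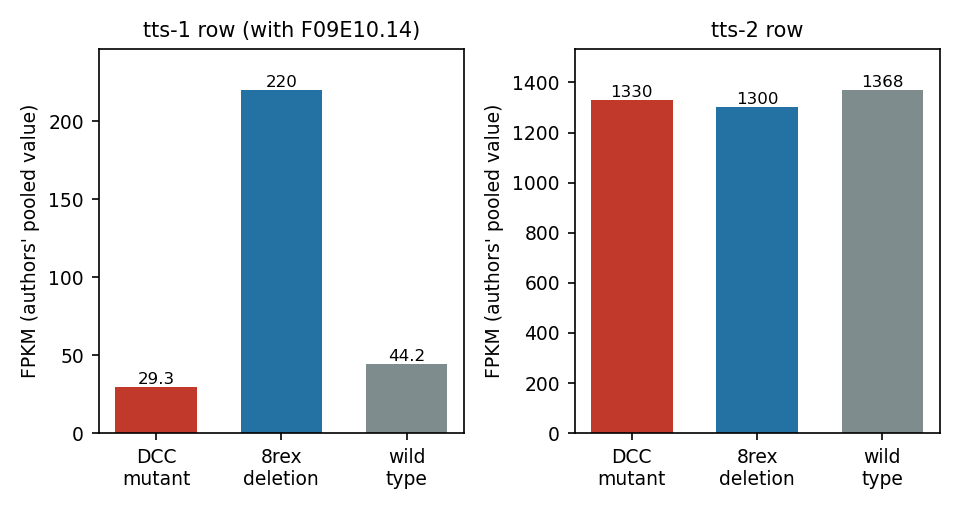
Levels of the tts-1 row (left) and the tts-2 row (right) in FPKM, 1 bar per genotype, each the authors' value over combined replicates and so without an error bar. The 8rex deletion is high for tts-1 (220 FPKM, against 44.2 FPKM in wild type), while tts-2 stands between 1300.1 and 1368 FPKM in the 3 genotypes.

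Within 50 kb of tts-1 on either side, 17 other rows passed the minimum, 12 of them with a coding gene. Their median difference of the 8rex deletion from wild type was -0.04 and none had a p under 0.05 in the authors' deposited table. Several, among them F09E10.5, F09E10.16 and K06A9.3, were not tested by the authors in that comparison. Of all tested rows only 0.459% had such a p, so nothing is read from its absence here. The nearest coding rows above the minimum were F09E10.7 and toca-1, which encodes an F-BAR protein of membrane traffic. F09E10.7 stood at 19.1 FPKM (DCC mutant), 15.1 FPKM (8rex deletion) and 9.48 FPKM (wild type). The toca-1 row stood at 180.2 FPKM (DCC mutant), 130.02 FPKM (8rex deletion) and 123 FPKM (wild type). In the DCC mutant the 17 neighbours had a median of 0.48, so that tts-1, at -0.58, stood below most of its neighbours on X there. For the DCC mutant 1 neighbour, F09E10.5, had a p under 0.05 in the authors' deposited table (p = 0.0394), where 2.07% of all tested rows did.

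Short non-coding rows beside tts-1 were named after their values were seen. F09E10.15 (89 bases, plus strand) stood at 206 FPKM (DCC mutant), 209 FPKM (8rex deletion) and 51.3 FPKM (wild type). Here both mutants were high, and the authors' deposited table gave p = 0.232 for the DCC mutant and p = 0.282 for the 8rex deletion. F09E10.16 (70 bases, minus strand) was listed at 0 in the DCC mutant, stood at 214 FPKM in the 8rex deletion and was listed at 0 in wild type, with no test by the authors. F09E10.10 was listed at 0 in both mutants and stood at 3.23 FPKM in wild type.

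**Figure D2:**
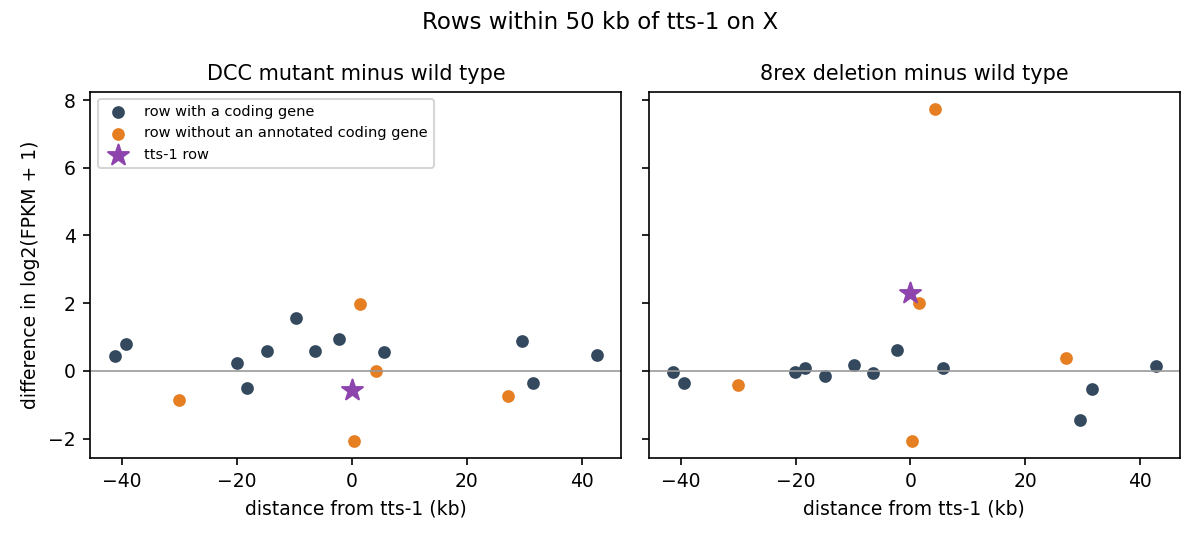
Difference in log2(FPKM + 1) of the DCC mutant (left) and the 8rex deletion (right) from wild type against distance from tts-1 in kb, 1 point per row with a mean of at least 1 FPKM. In the 8rex deletion the tts-1 row stands at 2.29 and F09E10.16, listed at 0 in wild type, is the highest point, while the 17 rows around tts-1 have a median of -0.04. In the DCC mutant tts-1 lies at -0.58, below most of them.

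Of 11 genes with known roles in lifespan (insulin-like signalling, mitochondria, stress response and germline), the median difference from wild type was 0.09 in the DCC mutant and 0.10 in the 8rex deletion. Of these, 1 had a p under 0.05 in the DCC mutant and none in the 8rex deletion in the authors' deposited table. Over all tested rows the share with such a p was 2.07% in the DCC mutant and 0.459% in the 8rex deletion. The insulin receptor gene daf-2 stood at 43.2 FPKM (DCC mutant), 49.0 FPKM (8rex deletion) and 45.6 FPKM (wild type). The FOXO transcription factor gene daf-16 stood at 44.1 FPKM (DCC mutant), 60.2 FPKM (8rex deletion) and 56.1 FPKM (wild type). The ubiquinone synthesis gene clk-1 stood at 26.97 FPKM (DCC mutant), 30.9 FPKM (8rex deletion) and 41.1 FPKM (wild type). The kinase gene pdk-1, which lies on X, was the gene with a p under 0.05. It stood at 45.9 FPKM (DCC mutant), 21.3 FPKM (8rex deletion) and 18.5 FPKM (wild type). The authors' deposited table gave pdk-1 p = 0.0202 for the DCC mutant. Its log2 difference there was 1.27, and that of daf-12, also on X, was 0.97. X-linked rows with a single coding gene had a median of 0.56 there (interquartile range from 0.29 to 0.79). The part of X linkage in the pdk-1 difference was not tested. Among the 5 gut marker rows, 1 had a p under 0.05 in the authors' deposited table for the 8rex deletion, where 0.459% of all tested rows did. The row of elt-2 and elt-4, GATA factor genes of the gut on X, stood at 40.8 FPKM (DCC mutant), 202 FPKM (8rex deletion) and 35.3 FPKM (wild type). The authors' deposited table gave elt-2/elt-4 p = 5e-05 in the 8rex deletion. The 5 gut marker rows summed to 301 FPKM (DCC mutant), 603 FPKM (8rex deletion) and 378 FPKM (wild type). Most of the excess of the 8rex deletion over wild type in that sum lay in the elt-2/elt-4 row. The gut actin gene act-5 stood at 157 FPKM (DCC mutant), 239 FPKM (8rex deletion) and 204 FPKM (wild type). The gut GATA factor gene elt-7 stood at 11.5 FPKM (DCC mutant), 15.5 FPKM (8rex deletion) and 16.7 FPKM (wild type). Of the 5 rows, 1 stood above wild type in the DCC mutant and 4 did in the 8rex deletion, and the p of the other 4 in the 8rex deletion lay between 0.429 and 0.942 in the authors' deposited table. No gut marker was at 0, and the part of gut cells in the tts-1 difference was not tested.

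Long non-coding rows were mostly low. The median of the mean FPKM was 4.55 over the 108 rows, against 14.2 over rows with a single coding gene. Of the 108, 28 had a mean of at least 10 FPKM and 3 of at least 100 FPKM. A further 31 rows without a coding gene were listed at 0 in all 3 genotypes and 72 lay above 0 but under the minimum. On X, 26 of 37 rows (70.3%) passed the minimum, and on the autosomes 82 of 174 (47.1%). On X, linc-118, linc-33, linc-54 and linc-140 passed through the 8rex deletion only and anr-17 through the DCC mutant only. On the autosomes linc-137 and anr-21 were likewise above 0 in a single genotype. The share of all rows that passed was not counted by chromosome, so nothing is read from these shares. Median levels of the 108 rows were 2.62 FPKM (DCC mutant), 4.74 FPKM (8rex deletion) and 3.47 FPKM (wild type).

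By the mean of the 3 genotypes, the X-linked genes linc-6 and linc-5 came next to tts-2 in level. The linc-6 row, shared with the non-coding F52D2.14, stood at 465 FPKM (DCC mutant), 278 FPKM (8rex deletion) and 208 FPKM (wild type). The DCC mutant was high, 2.24-fold over wild type, with p = 0.455 in the authors' deposited table. Its model of 174 bases lies on X from 1982710 to 1982883, minus strand. The linc-5 gene (X, 14018610 to 14019376, plus strand) stood at 141 FPKM (DCC mutant), 86.0 FPKM (8rex deletion) and 101 FPKM (wild type), with p = 0.361 for the DCC mutant and p = 0.632 for the 8rex deletion in the authors' deposited table. The linc-22 row, on X from 9069138 to 9073735, stood at 44.0 FPKM (DCC mutant), 20.2 FPKM (8rex deletion) and 33.8 FPKM (wild type). It shares its row with a snoRNA gene and with an identifier that the annotation does not hold. For linc-5 and linc-22 the order was the same, with the DCC mutant high and the 8rex deletion low.

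Among autosomal rows of high level, the pair anr-28 and anr-26, which share a row on chromosome III, stood at 59.5 FPKM (DCC mutant), 49.2 FPKM (8rex deletion) and 50.7 FPKM (wild type). The linc-11 gene (II, 3373169 to 3374185) stood at 43.6 FPKM (DCC mutant), 41.1 FPKM (8rex deletion) and 43.6 FPKM (wild type). For linc-11 the 3 genotypes lay close together. By contrast linc-137 (V, 1863875 to 1863990, 116 bases) was listed at 0 in the DCC mutant, stood at 145 FPKM in the 8rex deletion and was listed at 0 in wild type (p = 0.124 in the authors' deposited table). The linc-168 gene (V, 18649942 to 18650327) stood at 90.7 FPKM in the DCC mutant, was listed at 0 in the 8rex deletion and stood at 44.9 FPKM in wild type. Both are short models, of 116 and 134 exonic bases.

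**Figure D3:**
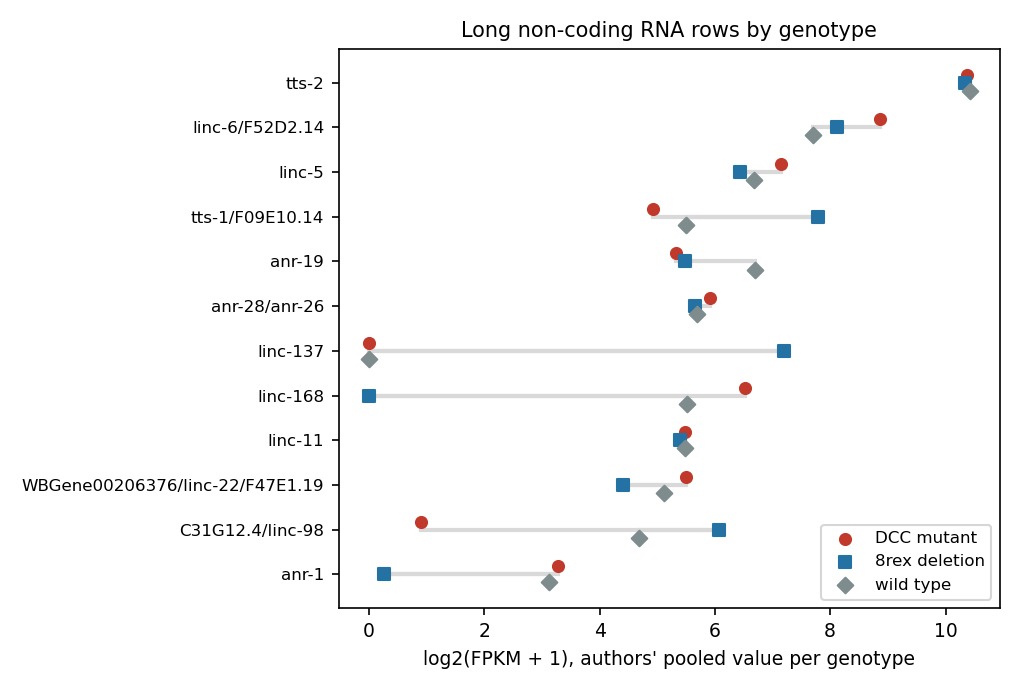
Level, as log2(FPKM + 1), of the 10 long non-coding rows of highest mean level and of the rows with a p under 0.05 in the authors' deposited table (linc-98, in a row shared with a coding gene, included), 1 point per genotype, joined by a grey line. The tts-2 and linc-11 points lie together, tts-1 is high in the 8rex deletion, and linc-137 and linc-168 have genotypes listed at 0.

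Across the DCC mutant comparison the 108 rows had a median log2 difference of -0.02, with an interquartile range from -1.05 to 0.52. The median over all 15628 rows was 0.00. Of the 108, 48 lay above wild type, 55 below and 5 at the same value, the last 5 listed at 0 in both genotypes. At least 2-fold higher were 16 rows (14.8%), where 8.55% of all rows were, and at least 2-fold lower were 28 rows (25.9%), where 12.1% of all rows were. At rows above 0 FPKM in both genotypes the counts were 7 higher and 14 lower of 79, where 6.06% of all such rows were higher and 5.33% lower. Of the 39 long non-coding rows that the authors tested, 0 had a p under 0.05 in their deposited table, against 2.07% of all 9509 tested rows. The smallest p of these 39 in the authors' deposited table was 0.131, at linc-73. By direction, 1.39% of all tested rows had such a p and were higher and 0.684% were lower, where 0 long non-coding rows were either.

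X-linked and autosomal rows were compared because the complex acts on X. In the DCC mutant the 26 X-linked rows had a median difference of 0.00 and the 82 autosomal rows one of -0.09, a gap of 0.09. Rows with a single coding gene had medians of 0.56 on X and -0.04 on the autosomes. Of the 26, 12 lay above wild type, 10 below and 4 were equal. The 4 equal rows, linc-118, linc-33, linc-54 and linc-140, were listed at 0 in both genotypes. They passed the minimum only through the 8rex deletion, so their difference here was fixed at 0. When rows listed at 0 in either genotype were left out, the 20 X-linked rows left had a median of -0.04. The gap was then -0.04, and when rows that share their locus start with a coding row were left out it was 0.37. The gap thus turned direction between settings. By level, the 7 X-linked rows of at least 10 FPKM had a median of 0.48, where X-linked coding rows of that level had one of 0.57, and the autosomal long non-coding rows of that level stood at 0.24, where autosomal coding rows stood at -0.01. At 3 to 10 FPKM the 12 X-linked rows had a median of 0.00, where X-linked coding rows had one of 0.58. These 12 include linc-33, linc-54 and linc-140, listed at 0 in both genotypes. At 1 to 3 FPKM the 7 X-linked rows had a median of -0.51, where X-linked coding rows had one of 0.33. Of the 10 X-linked rows that the authors tested, 7 stood above wild type and 3 below, and of the 29 autosomal ones 15 above and 14 below.

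In the 8rex deletion the 108 rows had a median of 0.16 (interquartile range from -0.47 to 0.88), where all rows had a median of -0.003. Of the 108, 63 lay above wild type, 44 below and 1 was equal. At least 2-fold higher were 25 rows (23.1%), where 9.36% of all rows were, and at least 2-fold lower were 13 rows (12.04%), where 7.03% of all rows were. At rows above 0 FPKM in both genotypes the counts were 13 higher and 11 lower of 92, where 3.64% of all such rows were higher and 2.37% lower. The remaining 2-fold higher rows were listed at 0 in wild type. The X-linked rows had a median of 0.40 and the autosomal rows one of 0.13, a gap of 0.27, while coding rows had medians of -0.04 on X and -0.01 on the autosomes. With a pseudocount of 5 FPKM that gap was 0.0811, and at a minimum of 5 FPKM it was 0.81. Without rows listed at 0 in either genotype it was 0.16, with medians of 0.23 on X and 0.07 on the autosomes. The X-linked linc-118, linc-33, linc-54 and linc-140 were above 0 only in the 8rex deletion and passed the minimum through that value. At 10 FPKM and above, the X-linked rows had a median of 0.00 and the autosomal rows one of -0.03. That 0.00 is the value of anr-17, listed at 0 in the 8rex deletion and in wild type. It passed the minimum only through the DCC mutant, so its difference here was fixed and nothing is read from that median. Of the 37 rows the authors tested, 2 had a p under 0.05 in their deposited table (5.41%), against 0.459% of all 9378. These were tts-1, which was higher (0.288% of all tested rows were called higher), and anr-1, which was lower (0.171%). The q of anr-1 was 0.9999 in the authors' deposited table. Nothing is read from that share, since the set was put forward with tts-1 known.

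**Figure D4:**
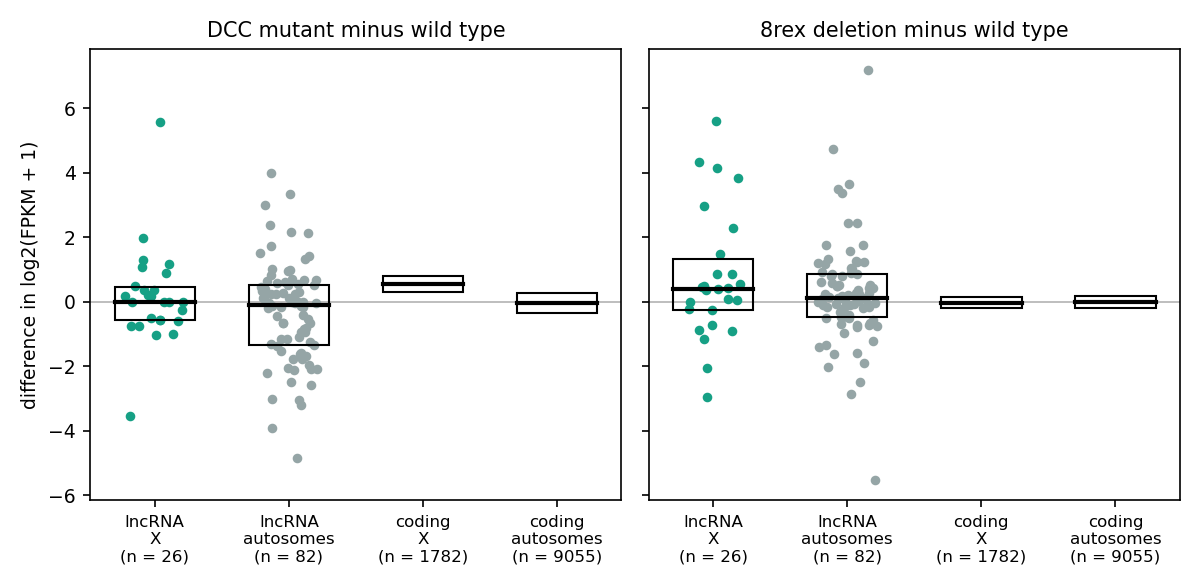
Difference in log2(FPKM + 1) of the DCC mutant (left) and the 8rex deletion (right) from wild type for long non-coding rows, 1 point per row, and for single coding gene rows, on X and on the autosomes. Boxes span the interquartile range and thick lines mark the median. Coding rows on X have a median of 0.56 in the DCC mutant, whereas the 26 long non-coding rows on X have one of 0.00 and a wider spread.

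Among the largest differences of the DCC mutant at linc rows above 0 in both genotypes, the higher values were those of linc-12, linc-14, linc-20 and linc-6. The linc-12 gene (II, 2681408 to 2681658) stood at 52.9 FPKM (DCC mutant), 16.5 FPKM (8rex deletion) and 15.4 FPKM (wild type). The linc-14 gene (V, 17539172 to 17539475) stood at 37.8 FPKM (DCC mutant), 7.27 FPKM (8rex deletion) and 12.7 FPKM (wild type). The X-linked linc-20 (16508081 to 16509294) stood at 11.7 FPKM (DCC mutant), 6.14 FPKM (8rex deletion) and 4.16 FPKM (wild type). In all 3 genes the DCC mutant was the high sample, and the authors' deposited table gave linc-12 p = 0.257, linc-14 p = 0.381 and linc-20 p = 0.295 for it. A lower value was found at linc-73 (II, 6993992 to 6994362), which lies 625 bases from unc-104, a kinesin gene of synaptic vesicle transport. It stood at 1.14 FPKM (DCC mutant), 5.29 FPKM (8rex deletion) and 7.84 FPKM (wild type), with p = 0.131 in the authors' deposited table for the DCC mutant. The unc-104 row itself stood at 33.9 FPKM (DCC mutant), 30.9 FPKM (8rex deletion) and 28.5 FPKM (wild type). The row of linc-166, on X from 737234 to 742376 and shared with the non-coding C02H7.5, stood at 0.0984 FPKM (DCC mutant), 0.649 FPKM (8rex deletion) and 11.8 FPKM (wild type). Wild type was high at linc-166, with p = 0.407 for the DCC mutant and p = 0.437 for the 8rex deletion in the authors' deposited table.

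At rows above 0 FPKM in the 8rex deletion and in wild type, the largest log2 differences upward, besides tts-1, were at linc-154, linc-25, linc-164 and linc-159. The linc-154 row, on X from 2326744 to 2329092, also holds a microRNA gene and stood at 0.386 FPKM (DCC mutant), 17.1 FPKM (8rex deletion) and 1.34 FPKM (wild type), with p = 0.351 for the 8rex deletion in the authors' deposited table. The linc-25 row (V, 18725359 to 18725896) stood at 9.82 FPKM (DCC mutant), 20.0 FPKM (8rex deletion) and 5.15 FPKM (wild type). The linc-164 gene (II, 12352959 to 12355909) stood at 0.732 FPKM (DCC mutant), 4.70 FPKM (8rex deletion) and 0.698 FPKM (wild type). The linc-159 gene (IV, 1033999 to 1035986) stood at 0.404 FPKM (DCC mutant), 3.57 FPKM (8rex deletion) and 0.546 FPKM (wild type). In all of these the 8rex deletion was the high sample. On the lower side, linc-78 (X, 2243115 to 2243239, a row shared with the non-coding AH9.7) stood at 10.1 FPKM (DCC mutant), 3.01 FPKM (8rex deletion) and 15.5 FPKM (wild type), with p = 0.0849 for the 8rex deletion in the authors' deposited table.

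The antisense genes contributed 31 of the 108 rows. Their median difference was -0.76 in the DCC mutant, with 3 rows (9.68%) at least 2-fold higher and 12 (38.7%) at least 2-fold lower, where 8.55% and 12.1% of all rows were. Of the 23 above 0 in the DCC mutant and in wild type, 1 was higher and 7 were lower. Of all rows above 0 in both, 6.06% were higher and 5.33% lower. For the 8rex deletion the antisense median was 0.04, with 6 rows (19.4%) higher and 5 (16.1%) lower, where 9.36% and 7.03% of all rows were. The 75 linc rows had a median of 0.00 in the DCC mutant, with 13 higher (17.3%) and 16 lower (21.3%). In the 8rex deletion the linc median was 0.25, with 18 higher (24%) and 8 lower (10.7%). The difference between anr and linc rows was not tested.

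The gene anr-1 lies on chromosome III from 6451048 to 6451567, plus strand, across from set-1, which encodes a histone H4 lysine methyltransferase. It stood at 8.71 FPKM (DCC mutant), 0.201 FPKM (8rex deletion) and 7.69 FPKM (wild type). The 8rex deletion was the low sample, and the authors' deposited table gave p = 0.02 for anr-1 in that genotype and p = 0.927 for the DCC mutant. The set-1 row stood at 432 FPKM (DCC mutant), 399 FPKM (8rex deletion) and 412 FPKM (wild type). No source used here states whether strand entered the counting, so reads of anr-1 and set-1 cannot be told apart.

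Other antisense rows with large differences were anr-19, anr-23 and anr-2. The gene anr-19 (I, 1916942 to 1917064) lies across from trpp-10, a gene of a vesicle-tethering complex. It stood at 39.1 FPKM (DCC mutant), 43.6 FPKM (8rex deletion) and 103 FPKM (wild type), while trpp-10 stood at 14.8 FPKM (DCC mutant), 17.9 FPKM (8rex deletion) and 19.7 FPKM (wild type). Both mutants were low at anr-19, with p = 0.492 for the DCC mutant and p = 0.458 for the 8rex deletion in the authors' deposited table. The gene anr-23 (V, 5949200 to 5949388), across from pst-1, stood at 6.85 FPKM (DCC mutant), 21.3 FPKM (8rex deletion) and 35.1 FPKM (wild type), and pst-1 at 25.96 FPKM (DCC mutant), 34.7 FPKM (8rex deletion) and 26.6 FPKM (wild type). The gene anr-2 (II, 12178470 to 12178764), across from Y57A10A.13, stood at 2.54 FPKM (DCC mutant), 2.68 FPKM (8rex deletion) and 14.1 FPKM (wild type), and its partner at 39.2 FPKM (DCC mutant), 34.1 FPKM (8rex deletion) and 32.5 FPKM (wild type). The gene anr-36 (V, 7854250 to 7854959) was among those highest over wild type in the DCC mutant, at 4.61 FPKM (DCC mutant), 3.30 FPKM (8rex deletion) and 1.25 FPKM (wild type). It overlaps C37C3.9 on the same strand, which stood at 33.6 FPKM (DCC mutant), 17.3 FPKM (8rex deletion) and 15 FPKM (wild type).

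Of the 108 rows, 36 overlap a coding gene on the opposite strand, 26 of them annotated as antisense RNA and 10 as linc, which gives 38 pairs. In 28 of the pairs the coding partner had the higher mean FPKM. In the DCC mutant 16 pairs had a member at least 2-fold from wild type, and the partner was at least 2-fold the same way in 1 of them and within 1.5-fold of wild type in 12. For the 8rex deletion there were 15 such pairs, with 1 partner the same way and 10 within 1.5-fold. Over all rows 20.6% in the DCC mutant and 16.4% in the 8rex deletion were at least 2-fold from wild type in either direction. Of rows with a single coding gene 13.2% and 5.81% were, so the partner counts of 1 are not read as a result. The 2 comparisons share the wild-type value.

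Some rows stood on the same side in both mutants, which share their wild-type value. On the log2(FPKM + 1) scale 8 rows (7.41%) were more than 2-fold higher in both, where 2.07% of all rows were, and 7 of the 8 were listed at 0 in wild type. The highest was linc-27 (II, 6369727 to 6369877), at 14.8 FPKM (DCC mutant), 25.7 FPKM (8rex deletion) and listed at 0 in wild type. The other 6 listed at 0 in wild type were the linc-70 row with 9.15 FPKM in the DCC mutant and 11.5 FPKM in the 8rex deletion, and linc-10, linc-80, linc-58, anr-56 and the linc-36 row. These last 5 lay between 1.65 and 6.99 FPKM in the DCC mutant and between 1.08 and 10.2 FPKM in the 8rex deletion. The member of the 8 above 0 in wild type was linc-87 (III, 12149562 to 12151118), at 4.09 FPKM (DCC mutant), 4.80 FPKM (8rex deletion) and 1.504 FPKM (wild type). Also 8 rows (7.41%) were more than 2-fold lower in both, where 4.89% of all rows were, with wild-type values between 4.602 and 103 FPKM. These were anr-19, anr-2, anr-29, anr-21, linc-141, linc-42, linc-50 and the linc-166 row. The gene linc-42 (III, 2936109 to 2937002) stood at 1.48 FPKM (DCC mutant), 1.81 FPKM (8rex deletion) and 9.39 FPKM (wild type). Of the lower rows, 4 were listed at 0 in at least 1 mutant. These were linc-141, linc-50, anr-29 and anr-21, all at 0 in the DCC mutant, of which linc-141 stood at 3.87 FPKM (8rex deletion) and 14.02 FPKM (wild type).

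Values listed at 0 were frequent. Of the 108 rows, 20 were listed at 0 in the DCC mutant, 3 in the 8rex deletion and 14 in wild type, and 78 were above 0 in all 3. Over all 15628 rows it was 1959 in the DCC mutant, 1085 in the 8rex deletion and 1279 in wild type, the same order. At least 1 genotype was listed at 0 in 27.8% of the 108 rows and in 17.3% of all rows. Only in the 8rex deletion was a value above 0 found at 5 rows: linc-137, linc-118, linc-33, linc-54 and linc-140, the last 4 on X, named after their values were seen. The linc-118 gene stood there at 48.0 FPKM, linc-33 at 18.98 FPKM, linc-54 at 16.7 FPKM and linc-140 at 13.2 FPKM. How many of all rows were above 0 in that deletion only was not counted, so nothing is read from these 5. The row of anr-17 on X (17697239 to 17697346, across from cgt-2) stood at 46.6 FPKM in the DCC mutant and was listed at 0 in the 8rex deletion and in wild type. The row of anr-21 was listed at 0 in both mutants and stood at 4.602 FPKM in wild type. Among the 95 rows with a single gene, the 28 listed at 0 in at least 1 genotype had a median exonic length of 244 bases, and the 67 above 0 in all 3 had 494 bases.

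The share of rows at least 2-fold from wild type was set out by level, without a test. In the DCC mutant 40.7% of the 108 rows were at least 2-fold from wild type in either direction, where 20.6% of all rows were. At 1 to 3 FPKM the share was 37.1% of long non-coding and 24.6% of coding rows. At 3 to 10 FPKM it was 46.7% of long non-coding and 20.6% of coding rows, and at 10 FPKM and above 35.7% of long non-coding and 6.35% of coding rows. For the 8rex deletion it was 35.2% of the 108 rows, where 16.4% of all rows were. In the same 3 classes of level it was 20%, 53.3% and 25% of long non-coding rows, against 14.6%, 9.02% and 1.49% of coding rows. Over all rows it was 29.6%, 31.1% and 13.1% in the DCC mutant and 23.4%, 26.9% and 9.51% in the 8rex deletion, so that at 1 to 3 FPKM in the 8rex deletion the long non-coding rows stood below all rows. Other non-coding rows of the annotation were higher still, at 58.7% of 2278 rows in the DCC mutant and 68.0% in the 8rex deletion, and 83.2% of them were listed at 0 in at least 1 genotype, against 27.8% of the linc, anr and tts rows. With 1 combined value per genotype, a difference between genotypes and one between replicates cannot be told apart in these shares.

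**Figure D5:**
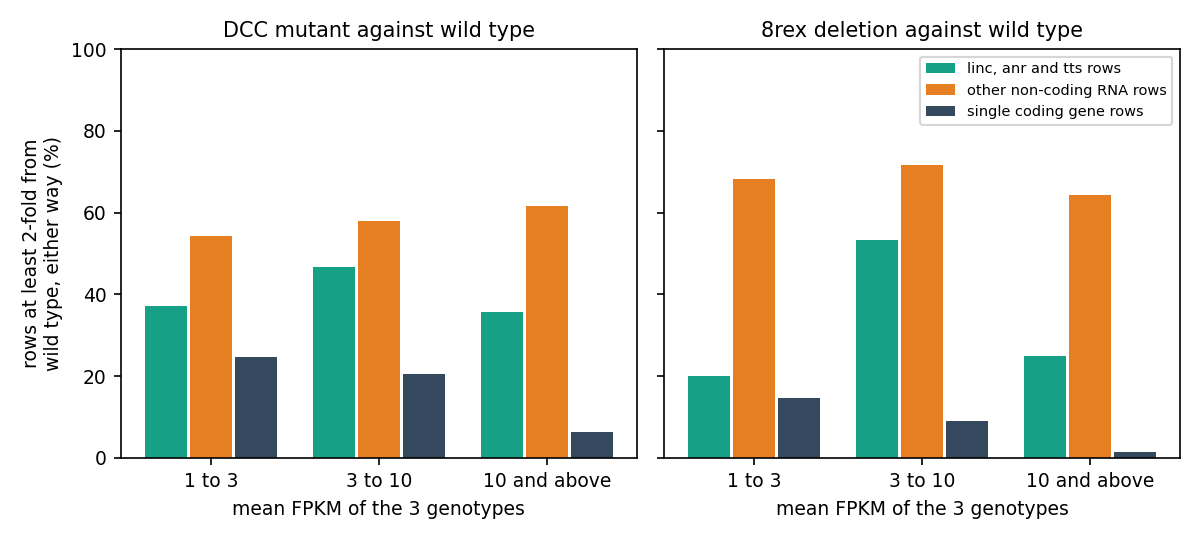
Percent of rows at least 2-fold from wild type, in either direction on the log2(FPKM + 1) scale, in the DCC mutant (left) and the 8rex deletion (right), by mean FPKM, for linc, anr and tts rows, other non-coding rows and rows with a single coding gene. At 10 FPKM and above, long non-coding rows stand at 35.7% and 25% and coding rows at 6.35% and 1.49%.

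Rows shared with a coding gene were 13, of which 11 passed the minimum. Their value cannot be assigned to the non-coding gene. The highest was linc-2 in a row with klp-6, mdt-11, C45G9.6 and pcf-11, at 253 FPKM (DCC mutant), 224 FPKM (8rex deletion) and 215 FPKM (wild type). Next came linc-37 with the transcription factor gene zip-2, at 169 FPKM (DCC mutant), 246 FPKM (8rex deletion) and 269 FPKM (wild type). The row of anr-34 with the chromatin factor gene zfp-1 stood at 153 FPKM (DCC mutant), 149 FPKM (8rex deletion) and 145 FPKM (wild type). For zip-2/linc-37 the DCC mutant was the low sample, with p = 0.0760 in the authors' deposited table. The rows Y41E3.1/linc-60 and cyh-1/Y49F6B.2/linc-71 stood between 61.5 and 81.2 FPKM in the 3 genotypes. The 1 such row with a p under 0.05 was C31G12.4/linc-98 on chromosome V, at 0.864 FPKM (DCC mutant), 66.3 FPKM (8rex deletion) and 24.6 FPKM (wild type), with p = 0.0346 in the authors' deposited table for the DCC mutant. The DCC mutant was low and the 8rex deletion high there.

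Of 4 other named non-coding genes, 2 passed the minimum. The gene rncs-1, whose double-stranded RNA is known to compete for the nuclease Dicer in the gut and epidermis, lies on X and stood at 110.03 FPKM (DCC mutant), 59.6 FPKM (8rex deletion) and 43.2 FPKM (wild type), with p = 0.0199 for rncs-1 in the authors' deposited table, DCC mutant over wild type. The gene lep-5, a long non-coding RNA of developmental timing, stood at 3.78 FPKM (DCC mutant), 7.95 FPKM (8rex deletion) and 8.45 FPKM (wild type), with p = 0.398 for the DCC mutant and p = 0.910 for the 8rex deletion in the authors' deposited table. The spliced-leader genes sls-1.1 and sls-2.1 were listed at 0 in all 3 genotypes.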

How the data were processed

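Embryo poly(A) RNA of 3 genotypes was sequenced. Per the submitters' processing notes, cutadapt 1.2.1, TopHat2 2.1.1, Cufflinks 2.2.1 and build ce11 were used; no source used here gives settings, annotation or strand use. Per the file headers, the authors deposited FPKM, 1 value per genotype over combined replicates. They also deposited a log2 fold change over wild type, which equals the ratio of the FPKM values within 5.2e-05 on the log2 scale where both are above 0. Each fold change has a deposited p-value and q-value, of a test that no source used here names. A p of 1 was taken as not tested.

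Symbols, types and positions came from the Ensembl annotation of the same assembly, which held 45923 of 46148 identifiers. The 242 rows without an identifier (of 40669) were left out. The mean over genotypes had to reach 1 FPKM, and a difference is that of log2(FPKM + 1). Models over replicates were not possible on combined values, so no test was made here. Members, lists and the rule for named genes were chosen with earlier results of these data known. That rule takes both tts genes, the 10 rows of highest mean, rows with an authors' p under 0.05, the 5 largest differences in each direction and comparison among rows above 0 in both genotypes, the 5 highest rows shared with a coding gene, and rows over 2-fold the same way in both mutants. Alternatives changed the pseudocount, the minimum, the rows used and the centring. The steps were tested on simulated data. Python 3.11.15, numpy 2.4.6, pandas 2.3.3 and matplotlib 3.10.9 were used.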

Additional observations from a re-analysis of the deposited data

How the results depend on the processing

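No paired analysis was possible because the table holds 1 pooled value per genotype, and no replicate was left out, for the same reason. The tts-1 difference of the 8rex deletion from wild type lay between 2.19 and 2.31 under all alternatives run for it. For the DCC mutant it lay between -0.59 and -0.52. The summaries over long non-coding rows moved more, and the causes were not tested. In the DCC mutant the median of -0.02 became 0.0153 centred on the autosomes, -0.14 without a minimum and 0.19 at a minimum of 5 FPKM. Its X minus autosome gap of 0.09 became 0.25 at 5 FPKM, 0.24 with single-gene rows, -0.0386 without rows listed at 0 and 0.37 without rows whose start is shared with a coding row. That last alternative, and the tts-1 value with no pseudocount, were chosen after seeing the data. The counts that follow are of 108 rows with any pseudocount and of 52 rows at the 5 FPKM minimum. Without rows listed at 0 they are of 79 rows in the DCC mutant and 92 in the 8rex deletion. Without shared starts they are of 60 rows. A lower count of fewer rows need not be a lower share. The 16 rows at least 2-fold higher became 7 with a pseudocount of 5 FPKM, 8 at the 5 FPKM minimum and 7 without rows listed at 0. The 28 lower rows became 11, 10 and 14 in these settings and 12 without shared starts. In the 8rex deletion the median of 0.16 became 0.28 without shared starts. Its gap of 0.27 became 0.39 with a pseudocount of 0.1 FPKM, 0.0811 with 5 FPKM, 0.81 at the 5 FPKM minimum and 0.16 without rows listed at 0. The 25 higher rows became 12 with a pseudocount of 5 FPKM, 13 at the 5 FPKM minimum and 13 without rows listed at 0. The 13 lower rows became 20 with a pseudocount of 0.1 FPKM, 8 with 5 FPKM, 6 at the 5 FPKM minimum and 4 without shared starts. The other 54 values kept their direction and stayed within 1.5 times for counts and within 0.1 on the log2 scale for medians.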
